A study of Drosophila melanogaster with 2 samples.

Results

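The genes described here encode cell surface and secreted proteins by which growing axons and their partners recognise each other. They are the rows named *side* or starting with side-, beat-, robo, Toll-, Ten-, Sema, Plex or Fas, and 41 of the 15902 features of the table met this rule. These were 14 *beat* genes, 8 *side* genes, 3 *robo* genes, 5 semaphorins, 2 plexins, 2 teneurins, 4 Toll genes and 3 fasciclins. Together they held 798089 unique molecular identifiers (UMIs, random tags by which each captured transcript is counted once), or 0.328% of all UMIs. Of the 41 members, 39 held at least 100 UMIs, whereas *beat-IIIa* held 6 and *Toll-4* held 11 and are not described further.

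Side and its relatives are immunoglobulin proteins on cell surfaces, and Beat proteins are their binding partners, first known from *Drosophila* motor axons that leave the nerve toward muscle. Robo receptors read Slit, the repellent of the midline, and plexins read semaphorins. Teneurins and several Toll family proteins match axons with their targets, while the fasciclins hold like cells together. In the fly visual system the photoreceptor axons grow from the eye disc into the brain, where lamina and medulla neurons receive them.

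The cells came from dissociated brains with attached eye discs of larvae raised for 120 h at 25 °C. The labels list 1 library of *mirr*>OreR, the control, which the methods call Oregon-R, and 1 library of *mirr*>ND-42 RNAi (line BL28894), in which a hairpin against a subunit of mitochondrial complex I is driven by *mirr*-Gal4, a driver active in the dorsal eye. The 2 deposited tables were identical byte for byte, so they hold 1 set of 33552 cells, analysed here as 1 library of open genotype. No comparison of the genotypes was made, cells were not treated as replicates, and no test was run. Each cell held 500 to 333220 UMIs, with a median of 4092. Intervals are 95% exact intervals for counting error only.

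Cells were gated by having at least 1 UMI of each gating gene, and a cell could pass several of the 12 gates. There were 7 neuron gates, all with *elav*, a gene used as a mark of neurons. The *bsh* gate held 741 cells, the *hbn* gate 4468, the *Lim3* *tup* gate 977 and the *acj6* *dac* gate 635. By transmitter genes, 6536 cells were cholinergic (*ChAT* or *VAChT*), 2814 glutamatergic (*VGlut*) and 1250 GABAergic (*Gad1*). The other gates held 1665 cells gated as photoreceptors (*gl*, *elav*), 316 lamina cells (*sim*, *eya*), 1666 neuroblasts (*wor*, *mira*), 842 glia (*repo*) and 1820 eye progenitors (*Optix*, *eya*). No gate was passed by 16781 cells.

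The gates were not pure. Between 39.3% and 72.6% of a gate's cells also passed another, Scrublet called 16.2% to 32.8% of them as doublets, and *elav* was found in 75.9% of all cells, in 91.7% of the neuroblasts, in 69.5% of the glia and in 71.9% of the eye progenitors. Median depth ran from 4876 UMIs per cell in the *Lim3* *tup* gate to 15668 in the eye progenitors. Markers not used for gating were only partly in the gate of their list, with levels given as UMIs per 1000000 UMIs of the gate (CPM below). *tll* stood at 177 in the lamina cells against 23.6 in all cells, *dpn* at 126 in the neuroblasts against 58.2, and *alrm* at 106 in the glia against 7.65. *sev* stood at 19.8 in the photoreceptors against 4.38, and *chp*, a gene of maturing photoreceptors, was low in every gate but highest there, at 3.28 against 1.27. In the neuroblasts *grh* was no higher than in all cells (187 against 189), and among eye progenitors *hth* stood at 1349 against 1274. Other listed markers were higher in another gate. The glial gene *nrv2* was 231 in neuroblasts and 175 in glia, and *bnb* was 147 in photoreceptors and 131 in glia. *ey* was 46.5 in neuroblasts and 42.5 in eye progenitors. *svp* was 50.2 in *Lim3* *tup* neurons and 30.1 in photoreceptors. As a reference for free RNA, 89 cells with the hemocyte genes *Hml* and *Pxn* and without *elav* were set aside. Leaving out cells with *elav* may also have left out hemocytes with free neuron RNA. Hemocyte levels and shares may thus lie below the free RNA of the gates, which was not tested. These 89 cells had a median depth of 16784 UMIs, above that of every gate. In them 9 of the 39 members were at 0, which allows up to 2.03 CPM by a floor of 3 UMIs.

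Most *beat* and *side* genes differed strongly between the gates, and the semaphorins, plexins and teneurins differed less. For each member the highest of its 12 levels was divided by the lowest. The median of this ratio was 10.5 for the 21 *beat* and *side* genes with at least 100 UMIs and 3.08 for the other 18 members. It was at least 5 for 19 of the former, with *beat-IIIc* (2.72) and *side-V* (2.19) below, and for 3 of the latter, *robo3*, *Toll-6* and *Fas2*. The ratio was not computed for all features, so these medians and counts have no value of all features beside them. Members also differed in level, and the part of level and of free RNA in the ratio was not tested. The neuroblasts had the lowest level for 29 members, and the GABAergic neurons the highest for 13. A member was called raised in a gate when its level there was at least 2-fold that of all cells outside the gate, and lowered when it was at most 0.5-fold. By this rule 14 of the 39 were raised in no gate. The share of all features raised in no gate was not counted, so this count has no share beside it. Between 0.619% (*hbn* neurons) and 7.53% (cholinergic neurons) of features were raised in a single gate.

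**Figure D1:**
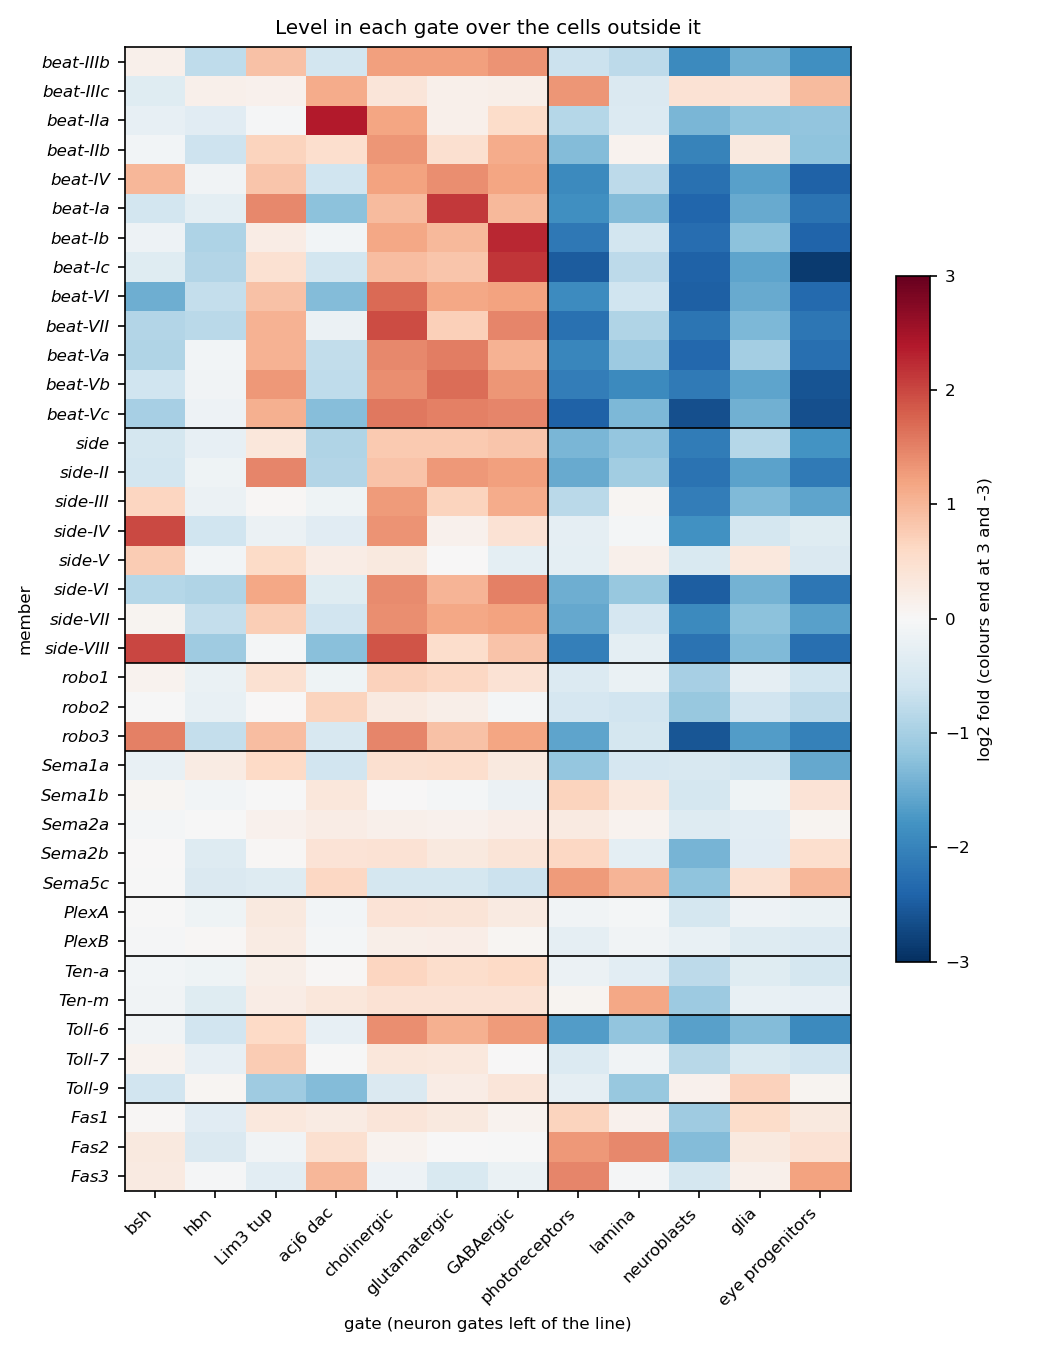
Colours give the log2 fold of each member (rows, grouped by family) in each gate (columns) over all cells outside that gate, for the 39 members with at least 100 UMIs. Most *beat* and *side* rows are red in the transmitter gates and blue in the neuroblasts, glia, photoreceptors and eye progenitors, with *beat-IIIc* and *side-V* as the clearest exceptions, while the plexin and *Sema2a* rows are pale throughout.

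In the transmitter gates many members were raised and none was lowered. In cholinergic neurons 17 members were raised, among them 10 *beat* and 5 *side* genes, where 7.53% of the 10023 features with at least 100 UMIs were raised and 1.68% lowered. In glutamatergic neurons 11 were raised, including 7 *beat* and 3 *side* genes, beside 6.17% of features raised and 2.87% lowered. In GABAergic neurons 16 were raised, including 10 *beat* and 4 *side* genes, beside 7.18% raised and 4.1% lowered. The median fold of the members was 1.82, 1.44 and 1.51 in these 3 gates, against 1, 1.01 and 1 for all features. The same 9 members were raised in all 3, namely *beat-IIIb*, *beat-IV*, *beat-VI*, *beat-Va*, *beat-Vb*, *beat-Vc*, *side-VI*, *side-VII* and *Toll-6*, although the gates share cells (625 between the cholinergic and glutamatergic gates). The share of all features raised in all 3 was not counted. It can be no more than the 6.17% raised in glutamatergic neurons. These gates were also high in a list of 6 neuron genes (*elav*, *nSyb*, *brp*, *Syt1*, *para* and *Syn*). Its summed level was 1323, 1371 and 1446 CPM against 853 in all cells. *Lim3* *tup* neurons, at 1341, lay above the cholinergic neurons in this list. But the list includes *elav*, a gating gene of all neuron gates, at 703 in *Lim3* *tup* and 638 in cholinergic neurons. Among its other genes, *brp* was also higher in *Lim3* *tup* neurons (225 against 202). Lower there were *nSyb* (215 against 235), *Syt1* (119 against 142), *para* (43.3 against 62.7) and *Syn* (35.6 against 42.8). The part of this list in the members' levels was not tested. Against cells with *elav* alone, each count stayed within 1.5 times the value given, but as a mean over cells 11 members were raised in cholinergic and 6 in glutamatergic neurons. Shares of all features are not given for these 2 settings.

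**Figure D2:**
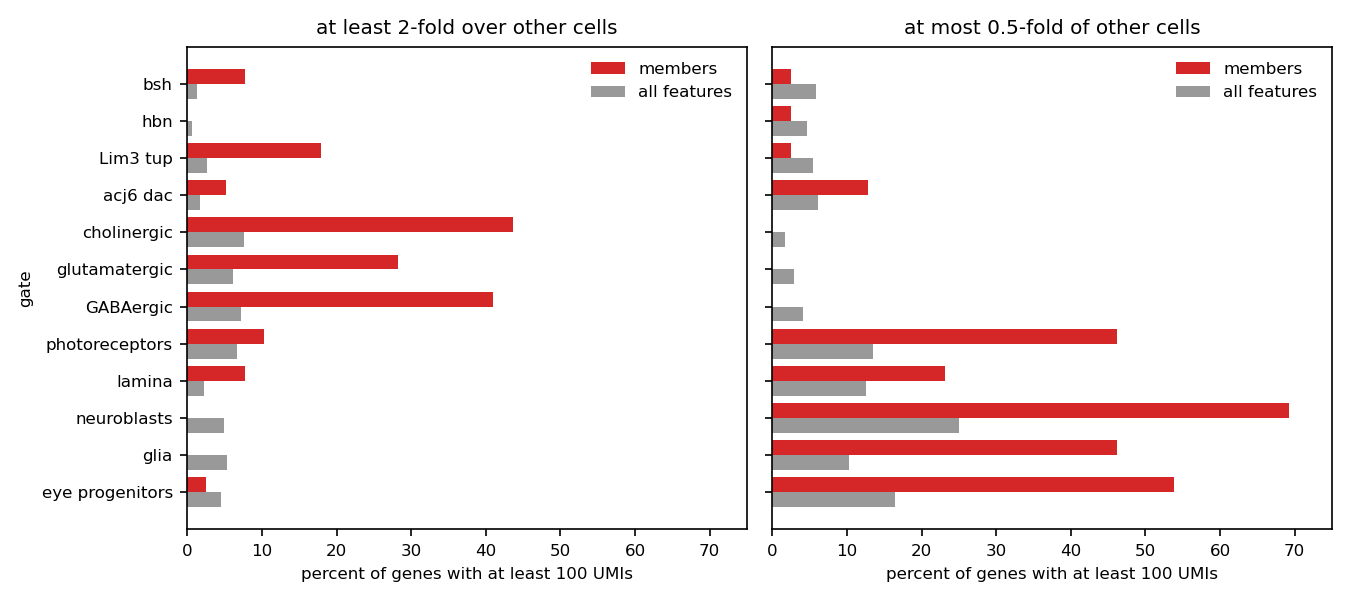
Bars give the percent of genes with at least 100 UMIs that were raised (left) or lowered (right) in each gate, for the 39 members in red and for all 10023 features in grey. The red bars exceed the grey on the left for the transmitter gates, where 28.2% to 43.6% of members were raised, and on the right for the neuroblasts, where 69.2% were lowered.

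The transmitter gates differed in which members led. In cholinergic neurons the largest folds were those of *beat-VII*, at 33.4 CPM (31.9 to 34.9) against 8.65 outside, 3.86-fold (3.61 to 4.13), and of *side-VIII*, at 40.8 (39.1 to 42.5) against 11, 3.70-fold (3.49 to 3.93). They were followed by *beat-VI* at 63.9 against 19.7 (3.25-fold), *beat-Vc* at 9.73 against 3.28 (2.97-fold), *robo3* at 56.3 against 20.5 (2.75-fold) and *beat-Va* at 14.5 against 5.32 (2.73-fold). No member had its highest level of the 12 gates here, and *beat-VII* and *beat-VI* had levels of 36.3 (33.0 to 39.8) and 64.5 in GABAergic neurons, which did not differ from the cholinergic ones beyond their intervals.

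Glutamatergic neurons were led by *beat-Ia*, the founding member of the *beat* family, at 77.6 CPM (74.1 to 81.2) against 18 outside, which is 4.32-fold (4.09 to 4.57). Across the 12 gates *beat-Ia* ran from 5.14 in neuroblasts through a median of 13.4 to this value, with *Lim3* *tup* neurons next at 61.3 (56.0 to 67.0), a level whose interval lay below that of the glutamatergic neurons. The neighbouring genes *beat-Vb*, *beat-Va* and *beat-Vc* followed at 13.8, 18.3 and 11.5 CPM (3.20-, 2.92- and 2.83-fold), then *beat-IV* at 49.5 (2.64-fold) and *side-II* at 78.3 (2.45-fold). Among the *hbn* cells, *beat-Ia* stood at 70.7 (64.6 to 77.3) in the 645 that were also glutamatergic and at 11.7 (10.7 to 12.8) in the other 3823. It thus followed *VGlut* within the *hbn* gate as well as outside it, where glutamatergic cells without *hbn* were at 80.4 (76.2 to 84.9).

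GABAergic neurons were led by 2 other genes of the *beat-I* group. *beat-Ib* stood at 28.9 CPM (26.0 to 32.1) against 6.04 outside, 4.79-fold (4.25 to 5.39), and *beat-Ic* at 70.9 (66.2 to 75.7) against 16.1, 4.40-fold (4.08 to 4.74). The next gate in order was the glutamatergic one for both, at 12.9 and 31.2, so that both were more than 2-fold higher in GABAergic neurons than in any other gate. After thinning every cell to 2000 UMIs, *beat-Ic* was found in 11.8% of GABAergic cells (10.0 to 13.8) and *beat-Ib* in 5.74% (4.47 to 7.24), and in none of 88 hemocytes, which allows up to 3.41% by the same floor of 3. The unthinned shares in GABAergic cells were 22.3% and 14.0%. *side-VI* at 75.5 (2.85-fold), *beat-VII* (2.75-fold), *beat-Vc* at 12 (2.74-fold) and *beat-IIIb* at 35.4 (2.55-fold) completed the leading genes. Over 7 alternatives of the gate, the cells and the level, *beat-Ib* was 4.47- to 8.17-fold and *beat-Ic* 4.07- to 7.16-fold higher.

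In *bsh* neurons, a gate for a homeobox gene of lamina and medulla neurons, 3 members were raised, against 1.24% of all features, and 1 was lowered, against 5.89%. *side-VIII* stood at 65.0 CPM (59.7 to 70.6) against 16.2 outside, 4.01-fold (3.66 to 4.38). *side-IV*, a cell surface partner of Beat-II proteins (FBgn0038156, dm6 chromosome 3R, 13450590 to 13464184, plus strand), stood at 51.1 (46.4 to 56.1) against 13.0, 3.93-fold (3.55 to 4.34). *robo3*, which sets the lateral position of axons in the nerve cord, stood at 77.4 (71.7 to 83.6) against 27.0, 2.87-fold (2.64 to 3.11). All 3 had their highest level of the 12 gates here, beyond the intervals of the next gate, which was the cholinergic one for *side-IV* (27.0) and *side-VIII* (40.8) and the GABAergic one for *robo3* (61.1). *side-V* was also highest in *bsh* neurons, at 83.0, without being raised by the rule. The lowered gene was *beat-VI*, at 11.1, 0.362-fold.

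The *bsh* gate shares 344 cells with the cholinergic gate, and the 3 raised genes were highest in these shared cells. There *side-IV* stood at 75.2 (66.7 to 84.4), against 31.6 (26.8 to 37.1) in the other *bsh* cells, 23.5 (22.2 to 24.8) in the other cholinergic cells and 9.08 (8.59 to 9.59) in *elav* cells of neither gate. *side-VIII* stood at 99.7 (90.0 to 110) in the shared cells, against 36.9 in the other *bsh* cells, 36.5 in the other cholinergic cells and 10.3 in neither. *robo3* had 114, 48.3, 52.2 and 20.9 in the same order. Either gate alone thus had more than 2-fold the level of *elav* cells of neither gate for each gene. The difference from cells outside grew when cells were required to pass only 1 gate (with a transmitter gate allowed beside it), to 8.46-fold for *side-VIII*, 7.76-fold for *side-IV* and 6.36-fold for *robo3*. With this setting 7 members were raised, a count for which no share of all features is given. Thinned to 2000 UMIs, 17.9% of *bsh* cells had a *side-IV* UMI (15.1 to 21.0; 34.7% unthinned), 21.4% a *side-VIII* UMI (34.8% unthinned) and 22.4% a *robo3* UMI (42.5% unthinned), where none of the 88 hemocytes had any of the 3.

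In *acj6* *dac* neurons 2 members were raised, against 1.71% of features, and 5 were lowered, against 6.11%. *beat-IIa* (FBgn0038498, dm6 chromosome 3R, 17320004 to 17366119, minus strand) stood at 102 CPM (96.8 to 108) against 19.6 outside, 5.22-fold (4.91 to 5.54), the largest fold of any member in any gate among those with at least 100 UMIs. The next gates were the cholinergic neurons at 42.5 and the GABAergic neurons at 34.7, and the lowest the neuroblasts at 10.3. Its level was 92.2 (85.4 to 99.4) in the 276 *acj6* *dac* cells that were also cholinergic and 114 (105 to 122) in the other 359. After thinning, 30.3% of *acj6* *dac* cells (26.7 to 34.1; 53.7% unthinned) had a *beat-IIa* UMI, against 7.49% of cholinergic cells and none of the hemocytes. With cells in 1 gate only, 311 in number, the level was 289 (268 to 312) and the fold 14.8. *robo2*, another Slit receptor, was also highest in this gate, at 201 against 149 in the cholinergic neurons, but was not raised by the rule.

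The second raised gene of the *acj6* *dac* gate, *beat-IIIc*, stood at 161 (155 to 168) against 74.7, 2.16-fold (2.07 to 2.26), and *Fas3*, at 825, was second only to its level in photoreceptors. Of the 635 cells of the gate, 117 also passed the photoreceptor gate and 130 the eye progenitor gate, in which both genes were high as well. In the 311 cells of 1 gate only, *beat-IIIc* was at 48.8 (40.4 to 58.6), 0.654-fold, and *Fas3* at 425 (399 to 452). The call of *beat-IIIc* was also lost as a mean over cells (1.5-fold), in thinned cells (1.79-fold) and without cells of over 30000 UMIs (1.71-fold), whereas *beat-IIa* was called in all 7 alternatives. The 5 lowered members were *beat-Ia*, *beat-VI*, *beat-Vc*, *side-VIII* and *Toll-9*, the last with 3 UMIs in the gate and an interval of the fold from 0.0833 to 1.22.

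**Figure D3:**
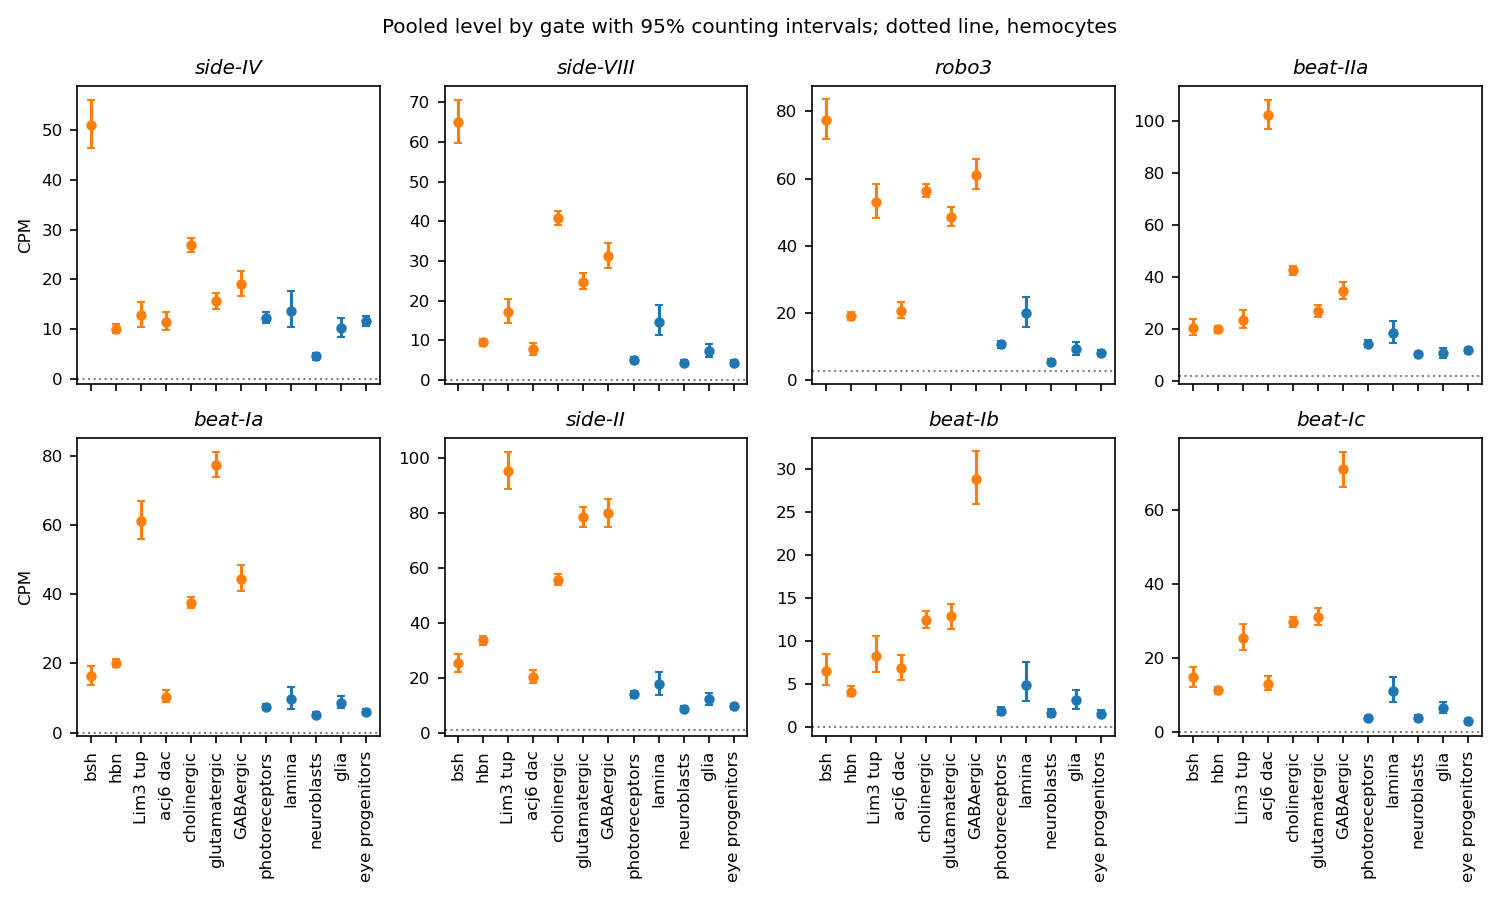
Points give the pooled level of 8 members in CPM in each of the 12 gates (orange for neuron gates, blue for the others), with 95% exact counting intervals and a dotted line at the level in hemocytes. *side-IV*, *side-VIII* and *robo3* peak in the *bsh* gate, *beat-IIa* in the *acj6* *dac* gate at 102, *beat-Ia* in the glutamatergic gate at 77.6, *side-II* in the *Lim3* *tup* gate at 95.2, and *beat-Ib* and *beat-Ic* in the GABAergic gate.

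In *Lim3* *tup* neurons, gated by 2 LIM homeobox genes, 7 members were raised, against 2.62% of features, and 1 was lowered, against 5.51%. The lowered gene was *Toll-9*, with 2 UMIs in the gate and an interval of the fold from 0.0575 to 1.77. *side-II* stood at 95.2 CPM (88.5 to 102) against 34.5 outside, 2.76-fold (2.56 to 2.97), and *beat-Ia* at 61.3 against 22.5, 2.73-fold (2.48 to 2.99). *side-II* had its highest level here, above the 79.8 of GABAergic and 78.3 of glutamatergic neurons. It was 103 (90.3 to 118) in the 256 cells that were also glutamatergic and 92.1 (84.4 to 100) in the other 721, and *beat-Ia* was 70.3 and 57.9 in the same cells. The other named genes lay nearer the limit, *beat-Vb* at 12.3 (2.46-fold), *side-VI* at 62.2 (2.23-fold), *beat-Vc* at 9.73 (2.11-fold) and *beat-VII* at 28.7 (2.07-fold). *beat-VII* was at 49.2 (41.7 to 57.8) in the 298 cells shared with the cholinergic gate and at 15.8 (12.5 to 19.8) in the other 679. These 4 fell below 2-fold in at least 1 alternative, *beat-VII* to 1.03 and *beat-Vb* to 1.48, whereas *side-II* and *beat-Ia* stayed at 2.48-fold or above in all 7. The count of raised members was 0 at a limit of 3-fold and 17 at 1.5-fold, and at 2-fold it ran from 3 as a mean over cells, and 4 against cells with *elav*, to 14 with cells in 1 gate only. No share of all features is given for these settings.

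In the levels of the members the *hbn* gate, the largest with a single homeobox gene, was close to the rest of the table. No member was raised, against 0.619% of features, and 1 was lowered, against 4.58%, namely *side-VIII* at 9.50 CPM, 0.474-fold. The median fold of the members was 0.84, with 4 members above 1 (all features 0.95). *Sema1a* was among these 4, at 475 and 1.19-fold, with a lower interval end of 1.17. The summed neuron list in this gate was 835, against 853 in all cells, but the gating gene *elav* made up 612 and 515 of these sums. Each other gene of the list was lower than in all cells. *nSyb* stood at 86.9 against 118, *brp* at 58.5 against 102 and *Syt1* at 47.2 against 68.9. *para* stood at 16 against 28.1 and *Syn* at 14.6 against 21.5. Of the *hbn* cells, 658 also passed the neuroblast gate.

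In cells gated as photoreceptors most *beat* genes and many *side* genes were low, and *Fas2* and *Fas3* were high. The summed *beat* level was 225 CPM, against 256 in all cells, and *beat-IIIc* alone made up 162 of it. There 4 members were raised, against 6.63% of features, and 18 were lowered, against 13.5%, including 10 *beat* and 5 *side* genes. *Fas3*, a homophilic adhesion protein (FBgn0000636, dm6 chromosome 2L, 18320102 to 18393441, plus strand), stood at 954 CPM (944 to 964) against 347 outside, 2.75-fold (2.71 to 2.78). *Fas2*, the fly relative of the neural cell adhesion molecule NCAM, stood at 615 (607 to 623) against 248, 2.48-fold. *beat-IIIc* at 162 (158 to 166) against 65.0 was 2.49-fold and *Sema5c* at 43.5 against 18 was 2.42-fold, and all 4 stayed above 2-fold in every alternative run. *beat-IIIc* was the exception of its family, since the other *beat* genes of this gate ran down to *beat-Ic* at 3.80 (0.177-fold). In thinned cells *Fas3* was found in 67.1% of photoreceptors (64.7 to 69.4) and in 10.2% of hemocytes, and *Fas2* in 57.0% and 2.27%. The unthinned shares in photoreceptors were 86.5% and 86.2%. The summed neuron list was 448 in this gate and 407 in the neuroblasts, of which *elav*, a gating gene here, made up 312 and 325. Each other gene of the list was higher in photoreceptors than in neuroblasts, such as *nSyb* (44.2 against 31.8) and *brp* (49.3 against 23.1). All were below their levels in all cells, 118 and 102 for these genes. The part of this list in the low *beat* and *side* levels was not tested.

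Eye progenitors shared 450 cells with the photoreceptor gate. Of the members 1 was raised, against 4.45% of features, and 21 were lowered, against 16.5%. The raised gene was *Fas3* at 819 (810 to 827) against 354, 2.31-fold (2.29 to 2.34). In the 880 cells of this gate alone *Fas3* was 651 (637 to 665) and 1.84-fold, and without cells of over 30000 UMIs it was 1.99-fold, so the call was lost in both. *Sema5c* (1.99-fold) and *beat-IIIc* (1.92-fold) lay just under the limit. *Fas2* was 387 here, below its level in photoreceptors. The lowest folds were those of *beat-Ic* (0.137), *beat-Vc* (0.161) and *beat-Vb* (0.166).

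Lamina cells were high in *Fas2* and *Ten-m*. There 3 members were raised, against 2.2% of features, and 9 were lowered, against 12.6%, of which *Toll-9* had 1 UMI in the gate. *Fas2* stood at 794 (767 to 821) against 295 outside, 2.70-fold (2.60 to 2.79), the highest level of this gene in any gate. *Ten-m*, one of the paired teneurins, stood at 326 (309 to 344) against 145, 2.25-fold (2.13 to 2.38), and the next gate was the GABAergic one at 197. *Sema5c* was at 43.5 (37.4 to 50.2), 2.03-fold, and fell to 1.90 in 1 alternative. In the 133 lamina cells of this gate alone *Fas2* was 1291 (1219 to 1366) and *Ten-m* 543 (496 to 592), while *Fas3* was 146 (123 to 173) against 427 in the whole gate. *Ten-m* was found in 47.8% of thinned lamina cells (84.5% unthinned) and in 23.9% of thinned hemocytes, a share above the 11.3% of neuroblasts. Whether the hemocyte share is free RNA or RNA of the hemocytes was not tested. *Fas2* was found in 71.0% of thinned lamina cells and 2.27% of thinned hemocytes.

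Neuroblasts and glia had no raised member, against 4.9% and 5.32% of features. In neuroblasts 27 of 39 were lowered, against 25% of features, including 12 of 13 *beat* genes and 7 of 8 *side* genes. The median fold of the members was 0.32 and that of all features 0.87. *beat-Vc* (0.16-fold), *robo3* (0.169-fold) and *side-VI* (0.181-fold) were the furthest down, at 0.871, 5.54 and 5.96 CPM. *beat-IIIc* was the exception at 102, 1.34-fold, and *Sema2a* (0.762-fold) and *PlexB* (0.859-fold) were near the rest. In glia 18 were lowered, against 10.3%, including 11 *beat* and 5 *side* genes, with a median fold of 0.67 against 0.96. *Fas1* was the member with the highest level relative to other cells whose interval lay above 1, at 121 and 1.47-fold. A set of 15 of the 39 members was lowered in photoreceptors, neuroblasts, glia and eye progenitors alike, made up of 9 *beat* genes, 4 *side* genes, *robo3* and *Toll-6*. The share of all features lowered in all of these gates was not counted. It can be no more than the 10.3% lowered in glia. The summed *beat* level of 147 CPM in neuroblasts and 174 in glia still lay above the 14.2 of hemocytes. Taken singly, 5 *beat* genes in neuroblasts and 2 in glia were at or under 2.03 CPM and could not be set above the hemocytes. This is the floor for a gene at 0 in hemocytes, as *beat-Ib* and *beat-Va* were. *beat-IIb*, *beat-Vb* and *beat-Vc*, the last 2 being those in glia, had UMIs in hemocytes. For such genes the limit is higher, so these counts may leave out genes that could not be set above the hemocytes.

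Of the 9 semaphorins, plexins and teneurins, the highest level was under 3-fold the lowest for 5 and above it for 4, namely *Ten-m* (4.34-fold), *Sema5c* (4.26-fold), *Sema1a* (3.77-fold) and *Sema2b* (3.43-fold). *Sema2a*, a secreted semaphorin, ran from 68.5 in neuroblasts to 101 in photoreceptors, 1.48-fold. *PlexB*, its receptor, ran from 50.8 in glia to 77.3 in *Lim3* *tup* neurons, 1.52-fold, and *PlexA* from 111 to 191, 1.73-fold. *Sema1a*, the transmembrane ligand of *PlexA*, was more uneven, at 163 in eye progenitors, a median of 332 and 612 in *Lim3* *tup* neurons. *Ten-a* was the most abundant member in all cells, with 140617 UMIs, and ran from 355 in neuroblasts to 851 in GABAergic neurons. Its span overlaps 12 other annotated features, 6 of them on the same strand, so its count is uncertain. *Toll-6*, a receptor for neurotrophin-like ligands, ran from 11.5 in eye progenitors to 84.8 in GABAergic neurons and differed most among the Toll genes. *Toll-7* ran from 25.5 to 70.8, and *Toll-9* was under 1 CPM in every gate.

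The number of members found in a cell was counted after thinning to 2000 UMIs, which 25784 cells reached. A cell had a mean of 4.45 members (4.42 to 4.47), with a range of 0 to 20. GABAergic neurons had 5.97 (5.83 to 6.11), cholinergic neurons 5.72 (5.65 to 5.78) and *acj6* *dac* neurons 5.68 (5.49 to 5.87), with overlapping intervals for the last 2. *bsh* neurons had 5.20, photoreceptors 4.78, eye progenitors 3.98, glia 3.54 and neuroblasts 2.66 (2.58 to 2.74). Hemocytes had 1.16 (0.945 to 1.41). The *beat* and *side* genes separated the gates further. At least 1 of them was found in 77.2% of GABAergic and 72.0% of cholinergic cells, in 44.0% of photoreceptors, 36.1% of eye progenitors, 22.2% of neuroblasts and 3.41% of hemocytes. Single cells held up to 12 of them.

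Binding partners were compared by their levels over the 12 gates. A correlation over gates is a description here, because the gates share cells and 1 library. Over all 741 pairs of the 39 members, the median Pearson r of the log2 levels was 0.57, and over the 104 pairs of a *beat* with a *side* gene it was 0.80, with 40 pairs at 0.9 or above. The 8 such pairs listed as binding partners had a median of 0.96, from 0.34 to 0.96. *side* with *beat-Ia* had 0.96, *side-II* with *beat-VI* 0.95, *side-VI* with each *beat-V* gene 0.96 and *side-VII* with *beat-IV* 0.95, values that many *beat* and *side* genes without a known contact also reached. In these pairs both partners were highest in transmitter or *Lim3* *tup* gates.

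*side-IV* and *beat-IIa* had the lowest correlation of the 8 pairs and were raised most in different gates. *side-IV* was 51.1 CPM in *bsh* neurons and 11.5 in *acj6* *dac* neurons, whereas *beat-IIa* was 20.6 in *bsh* neurons and 102 in *acj6* *dac* neurons. Their correlation over the gates was 0.34. The 2 gates shared 23 cells. In cells of 1 gate only the contrast was wider, with *side-IV* at 101 (89.4 to 113) and 13.5 (9.21 to 19.0), and *beat-IIa* at 23.5 (18.1 to 30.0) and 289 (268 to 312) in *bsh* and *acj6* *dac* neurons respectively. *beat-IIb*, the other known partner of Side-IV, was below 10 CPM in every gate, highest at 8.58 in GABAergic neurons, and had an r of 0.52 with *side-IV*. For Slit and its receptors, *sli* had an r of 0.88 with *robo1*, 0.57 with *robo2* and 0.78 with *robo3*. *PlexA* had 0.72 with *Sema1a* and 0.02 with *Sema1b*, and *PlexB* had 0.46 with *Sema2a* and 0.21 with *Sema2b*.

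**Figure D4:**
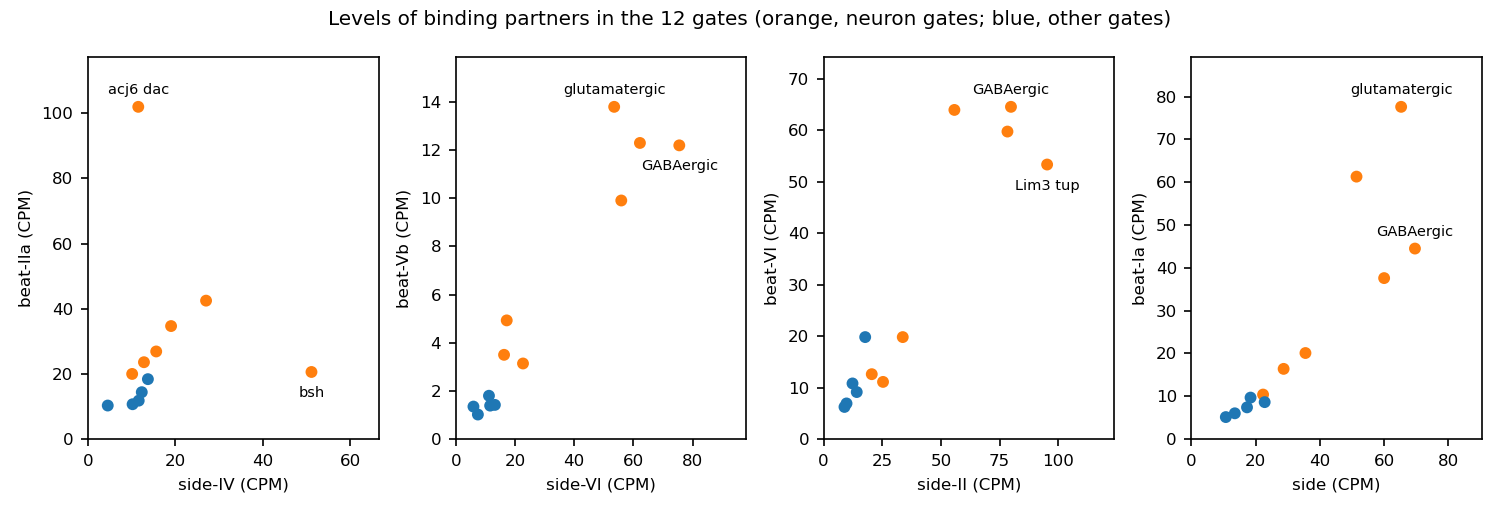
Each panel plots the level of a *side* gene (x axis) against that of a *beat* partner (y axis), both in CPM, with 1 point for each of the 12 gates. *side-IV* and *beat-IIa* have their highest points on different axes, at 51.1 in *bsh* and 102 in *acj6* *dac* neurons, while in the other 3 panels the neuron gates with much of 1 gene have much of the other.

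Members that lie close together in the genome were compared in the same way, beside a median r of 0.89 over all 78 pairs of *beat* genes. The 3 *beat-V* genes on chromosome 3R had r of 0.98 to 0.99 with each other, and *beat-Ib* and *beat-Ic*, 37856 bases apart on chromosome 2L and on opposite strands, had 0.99. *beat-Ia*, 8262 bases from *beat-Ic* on the same strand, had 0.89 with it and 0.84 with *beat-Ib*, and it led the glutamatergic gate where they led the GABAergic one. *beat-IIa* and *beat-IIb* had 0.66, *robo2* and *robo3* 0.71 and *Sema2a* and *Sema2b* 0.84. *beat-IIIb* and *beat-IIIc*, 193653 bases apart, had −0.30, since *beat-IIIb* was highest in GABAergic neurons (35.4) and *beat-IIIc* in photoreceptors (162). The pattern most like that of *beat-IIIc* was that of *Fas3* (r = 0.69), and the one most like that of *side-IV* was that of *side-VIII* (0.87). The spans of 14 of the 41 members overlap another annotated feature, 8 on the same strand. These 8 are *beat-IIIb*, *beat-IIIc*, *beat-Ic*, *beat-Vc*, *robo2*, *Ten-a*, *Ten-m* and *Fas3*, so the uncertainty given for *Ten-a* also holds for the counts of the others.

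Other guidance genes, 37 from a list of adhesion molecules, netrins, ephrins, receptor phosphatases and their effectors, were read in the same way. In cholinergic neurons 4 were raised, where 7.53% of all features were, in glutamatergic neurons 2 (6.17% of features) and in GABAergic neurons 1 (7.18%), and none was lowered in these gates. In neuroblasts 16 were lowered (25% of features). In eye progenitors 14 were lowered (16.5%) and 2 raised (4.45%), and in photoreceptors 9 were lowered (13.5%) and 2 raised (6.63%). *Dscam2*, which keeps like neurites apart, was highest in *Lim3* *tup* neurons at 889 CPM, 2.75-fold, and *Dscam3* was highest there too, at 75.1 and 3.17-fold. *CadN2* was highest in GABAergic neurons at 14.9, 4.03-fold. In the lamina cells, where *Fas2* and *Ten-m* were raised, 4 of the 37 were raised (2.2% of features), *comm* (69.2, 2.33-fold), *18w* (77.5, 2.27-fold), *unc-5* (82.2, 2.08-fold) and *sdk* (142, 2.01-fold).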

How the data were processed

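Single cells of larval brains with eye discs were captured with 10x chemistry. The authors counted UMIs with Cell Ranger on the BDGP6 genome and processed them with Seurat, and the deposited values are natural logs for 33552 cells and 15902 features, taken after scaling each cell to 10000 UMIs and adding 1. The log was undone and each value divided by its cell's lowest nonzero value, and 100% of the quotients were whole within 0.01. These UMI counts were used, 243468253 in all, and no cell was left out. The table of the other sample was identical and was not used a second time.

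Level is the summed UMIs of a gate per 1000000 UMIs. Levels have exact Poisson and shares exact binomial 95% intervals, and folds an interval from the binomial distribution. These cover counting error only. Calls used features with at least 100 UMIs, and the background shares include the gating genes. Named genes were up to 6 raised members per gate by fold. Likeness is Pearson's r of log2(level + 1). Coordinates are from the Ensembl annotation of dm6 (BDGP6). Doublets were called with Scrublet in scanpy 1.11.5 (Python 3.11.15) and marked 4304 cells (12.8%). They were kept except in 1 alternative. The interval scripts were tested on simulated data. The alternatives were a mean over cells, gates of at least 2 UMIs, cells in 1 gate only (a transmitter gate with another neuron gate counted as 1), no called doublets, cells thinned to 2000 UMIs, folds of 1.5 and 3, and filters of 20 UMIs and 1 UMI. Comparison with cells with *elav*, and leaving out cells of over 30000 UMIs, were added after the levels had been seen, as were the levels in cells shared by 2 gates. The members and lists were chosen with earlier results of these data known. With 1 library, no p-value was computed. For a count of 0 in hemocytes the limit is 3 counts (UMIs or cells) of the total, which covers counting error only and not the choice of cells without *elav*. No sequence is printed.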

Additional observations from a re-analysis of the deposited data

How the results depend on the processing

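Of the counts of raised members, 76 of 108 values under other settings stayed within 1.5 times the value reported, and 32 did not. Shares of all features are given for the main setting only, so the counts below have no share beside them. With a mean over cells the count was 6 in *bsh*, 3 in *Lim3* *tup*, 11 in cholinergic and 6 in glutamatergic neurons and 3 in eye progenitors. With gates of at least 2 UMIs it was 6 in *bsh*, 13 in *Lim3* *tup* and 17 in glutamatergic neurons and 2 in eye progenitors. With cells in 1 gate only it was 7 in *bsh*, 14 in *Lim3* *tup* and 5 in *acj6* *dac* neurons. Without called doublets it was 12 in *Lim3* *tup* neurons and 2 in eye progenitors, and in cells thinned to 2000 UMIs 6 in *bsh* and 4 in *Lim3* *tup* neurons and 3 in eye progenitors. At 1.5-fold it was 6 in *bsh*, 17 in *Lim3* *tup*, 5 in *acj6* *dac* and 18 in glutamatergic neurons, 7 in photoreceptors, 1 in glia and 3 in eye progenitors. At 3-fold it was 0 in *Lim3* *tup* neurons, photoreceptors, lamina cells and eye progenitors, 1 in *acj6* *dac*, 3 in cholinergic, 2 in glutamatergic and 2 in GABAergic neurons. Of the alternatives chosen after seeing the data, comparison with *elav* cells gave 4 in *Lim3* *tup* neurons, and leaving out cells of over 30000 UMIs gave 6 in *bsh* neurons and 0 in eye progenitors.

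The members found per cell, divided by the value of all cells, moved beyond their counting interval in 31 of 48 alternatives. Thinned to 1000 UMIs the ratio was 1.11 in *bsh*, 1.14 in *Lim3* *tup*, 1.26 in cholinergic, 1.19 in glutamatergic and 1.29 in GABAergic neurons, 0.559 in neuroblasts, 0.752 in glia and 0.861 in eye progenitors. Thinned to 3000 UMIs it was 1.23 in *Lim3* *tup*, 1.3 in cholinergic and 1.27 in glutamatergic neurons, 1.1 in photoreceptors, 0.621 in neuroblasts, 0.864 in glia and 0.932 in eye progenitors. Without called doublets it was 1.22 in *bsh*, 0.876 in *hbn*, 1.34 in cholinergic, 1.27 in glutamatergic and 1.43 in GABAergic neurons, 0.52 in neuroblasts and 0.85 in eye progenitors. With gates of at least 2 UMIs it was 1.25 in *bsh*, 0.93 in *hbn*, 1.35 in cholinergic, 1.36 in glutamatergic and 1.5 in GABAergic neurons, 1.12 in photoreceptors, 0.944 in lamina cells, 0.519 in neuroblasts and 0.723 in glia.

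Of the folds of named members, 138 of 185 values left their counting interval in the same direction and 1 reversed, *beat-IIIc* in *acj6* *dac* neurons, at 0.654 with cells in 1 gate only. Causes of these changes were not tested. No paired analysis was possible because the table holds 1 library, and the 2 genotypes were not compared. Gates by 1 UMI are leaky, shallow cells pass them less often, and cell types that no gate names were not described. Levels of a gene depend on its transcript ends and on overlapping genes.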
